A study of Saccharomyces cerevisiae and Saccharomyces paradoxus and Saccharomyces mikatae with 10 samples.

Results

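Messenger RNA levels of Saccharomyces mikatae, a wild relative of baker's yeast, were set against those of 6 strains of Saccharomyces cerevisiae over the 1674 genes for which the S. mikatae values were well filled. The members were chosen by position and completeness: genes of chromosomes XV, XIV, XIII, XI, IX, VIII and I, by their systematic names, with a value in all 7 columns and above 0 in S. mikatae. They were 1674 of the 4325 genes in the authors' table, and 1681 genes of the table lie on these 7 chromosomes. The missing 7 are LEU4, DED1, PRY2 and NOP58, which lacked a value in at least 1 column, and YMR007W, AHT1 and NRT1, which are listed at 0 in S. mikatae. S. mikatae was represented by IFO1815, a wild strain from soil and decayed leaf, with 1 library. S. cerevisiae was represented by YJM145 (clinical), BC187 (wine), DBVPG6040 (fruit juice), Y9 (distillery), and the wild strains YPS606 (oak tree) and DBVPG1788 (soil). YPS606 had 2 libraries that the authors joined into 1 column of values. Both S. paradoxus strains of the series, N17 and N44, are wild oak strains and are used here only for values side by side. All strains were handled alike: after 24 h at 30 °C in a medium that imitates oak sap, fresh cultures were started at an optical density of 0.1, and cells were collected at 0.5. That medium held sucrose at 1%, fructose and glucose at 0.5% each, yeast extract at 0.1% and peptone at 0.15%. The labels give neither mating type nor ploidy. The series asked whether expression levels follow descent or environment, and IFO1815 is the only strain of its species.

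Budding yeasts ferment sugars to ethanol and repress respiration, gluconeogenesis and the use of alternative carbon sources while glucose is plentiful. Haploid cells of mating type a and alpha express sex-specific pheromones and receptors together with a shared set of haploid genes. In diploids a repressor made of the products of both mating-type alleles shuts off the haploid genes. Haploid cells that sense pheromone activate the transcription factor Ste12, which binds the pheromone response element, while the alpha2 repressor, with Mcm1, binds operators in front of the a-specific genes and shuts them off in alpha cells and in diploids.

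The upstream windows of 4 mating genes that stood above the S. cerevisiae range are shown because they hold known control sequences, and were picked from the windows that do. They are the bases from 350 to 101 before the start codon, read 5′ to 3′ on the coding strand from the RefSeq R64 assembly of the S. cerevisiae reference strain. None of them was read from the strains measured here. Capitals mark TGAAACA, the core of the pheromone response element, and CATGTAA, a core of the alpha2 operator, each on either strand (TGTTTCA and TTACATG on the other). MFA2 is at chrXIV:352064-352313 (plus strand), BAR1 at chrIX:321992-322241 (plus strand), STE6 at chrXI:46396-46645 (minus strand) and PRM1 at chrXIV:110567-110816 (plus strand).
MFA2: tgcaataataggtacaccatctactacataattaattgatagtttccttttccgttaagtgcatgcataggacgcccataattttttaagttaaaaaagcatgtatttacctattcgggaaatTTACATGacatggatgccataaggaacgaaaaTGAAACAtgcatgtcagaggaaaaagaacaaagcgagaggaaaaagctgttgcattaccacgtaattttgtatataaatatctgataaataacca
BAR1: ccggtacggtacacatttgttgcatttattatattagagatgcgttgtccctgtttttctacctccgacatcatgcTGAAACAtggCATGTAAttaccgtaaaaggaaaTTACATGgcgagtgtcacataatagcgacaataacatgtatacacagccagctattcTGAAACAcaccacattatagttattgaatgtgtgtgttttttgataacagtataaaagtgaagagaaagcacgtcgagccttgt
STE6: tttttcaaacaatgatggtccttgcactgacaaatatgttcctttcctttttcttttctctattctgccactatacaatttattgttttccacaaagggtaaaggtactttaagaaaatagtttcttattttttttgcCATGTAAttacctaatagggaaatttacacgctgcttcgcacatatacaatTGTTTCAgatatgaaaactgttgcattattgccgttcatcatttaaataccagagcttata
PRM1: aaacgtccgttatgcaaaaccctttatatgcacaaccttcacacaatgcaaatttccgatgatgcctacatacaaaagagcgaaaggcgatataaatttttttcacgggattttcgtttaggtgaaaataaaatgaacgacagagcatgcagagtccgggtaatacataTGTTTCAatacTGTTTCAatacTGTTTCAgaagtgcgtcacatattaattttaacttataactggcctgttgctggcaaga
The windows of MFA2, BAR1 and STE6, 3 a-specific genes, hold both motifs, which do not overlap there. The PRM1 window holds the pheromone motif 3 times and no alpha2 motif. Of the other mating members above the range, STE4, FUS2, PRM2, PRM5 and CIK1 hold the pheromone motif alone, and STE12, KAR5 and KEX2 hold neither in this window. STE13, which lay inside the range, holds the pheromone motif too. Over the 1654 members with such a window, TGAAACA stands in 107 (6.47%) and CATGTAA in 65 (3.93%). A match is a description of these letters and not a measured site.

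Facts of the whole table that touch the comparison are these. On the other 9 chromosomes, 422 of 2593 genes with a value in all 7 columns are listed at 0 in IFO1815, against 3 on the chromosomes used here. The values are treated as RPKM, reads scaled by gene length and by library total, a unit inferred from steps in the low values of the S. cerevisiae columns. Those steps imply totals of 57.9 M to 153 M reads or fragments (M for mega), whereas the depth of IFO1815 is unknown. Over the members the values sum to 158658 in IFO1815 and to 161122 to 185058 in the S. cerevisiae strains, and FBA1 is the highest member in all 7 columns. In DBVPG6040 the members of chromosomes I and XI stood above the other S. cerevisiae strains, with median deviations of 0.44 and 0.40 on the log2 scale. On those chromosomes 18.75% and 20.3% of members lay above the S. cerevisiae range, against 26.7% to 32% on the other 5.

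S. mikatae lay outside the S. cerevisiae range for 899 of 1674 members (53.7%), with 465 above the highest of the 6 strains (27.8%) and 434 below the lowest (25.9%). Most of these differences were small: 719 of the 899 amounted to less than 2-fold, 89 were at least 2-fold higher and 91 at least 2-fold lower. If 7 columns differed only at random, any 1 of them would be the highest for about 1 in 7 genes. It would be the lowest for as many, so a place outside the range is not by itself a species difference. All levels were compared as log2(RPKM + 1) after quantile normalisation, which understates the change of low genes, and differences below are S. mikatae minus the mean of the 6 S. cerevisiae strains. In limma's moderated test, two-sided and with Benjamini-Hochberg adjustment over all members, 123 genes passed 0.05 (7.35%). Of these, 65 were higher in S. mikatae (3.88%) and 58 lower (3.46%), and every one of the 123 lay outside the S. cerevisiae range. The shares over all members are the background for the counts of each list below. The median difference over all members was 0.01, the median absolute difference 0.38 and the median SD among the S. cerevisiae strains 0.27. The test takes the spread from the S. cerevisiae strains and assumes that the lone S. mikatae strain varies as they do. An exact permutation test of 1 strain against 6 cannot go below 0.143, so the S. mikatae side has no replicate check. The number of calls depends on the scaling and on single strains. Without normalisation 55 genes passed, all of them among the 123, with 29 higher and 26 lower. With all 16 chromosomes normalised together 204 members passed, 155 higher and 49 lower (76% higher), and the median difference of the members was 0.18 in that fit. Without YPS606 71 members passed, without BC187 64 and without YJM145 64. Leaving out DBVPG1788 gave 101 and leaving out Y9 gave 88, whereas leaving out DBVPG6040 raised the number to 152.

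**Figure D1:**
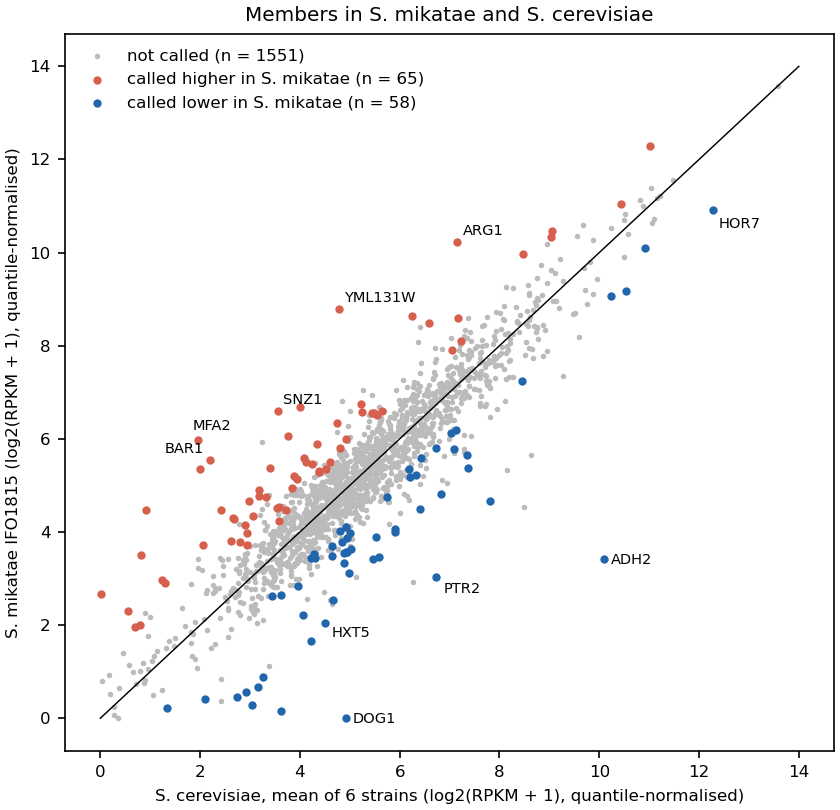
Level of each of the 1674 members in S. mikatae (vertical axis) against the mean of the 6 S. cerevisiae strains (horizontal axis), both as quantile-normalised log2(RPKM + 1). Coloured points are the 65 genes called higher and the 58 called lower by limma, and the members gather along the line of equal level, with a median difference of 0.01.

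The genes furthest above the S. cerevisiae range include a pheromone, biosynthetic enzymes and several genes of little known function. MFA2, which encodes the a-factor pheromone, was at 59.7 RPKM in S. mikatae and at 1.04 to 6.36 (median 3.04) in S. cerevisiae. YML131W, a gene related to medium-chain dehydrogenases, was at 413 RPKM against 19.2 to 46.7 (median 21.5). The single S. mikatae value lay above all S. cerevisiae strains for both, as for every gene called higher. The differences were 4.03 ± 0.62 (SE, limma adjusted p = 0.009) and 4.0 ± 0.51 (adjusted p = 0.00311). MIP6, which encodes an RNA-binding protein, was at 22.4 RPKM against 0.368 to 2.06 (difference 3.54, limma adjusted p = 0.00296). PTH4 was at 40.7 RPKM against 1.84 to 3.996 (difference 3.36, limma adjusted p = 0.000165). Both stood more than 2-fold above the highest S. cerevisiae strain. YOR268C, which has no known function, was at 11.2 RPKM against 0.389 to 0.965 (difference 2.70, limma adjusted p = 0.00244). YMR027W was at 372 RPKM against 60.5 to 90.2 (difference 2.38, limma adjusted p = 0.00311). YMR013W-A is listed at 5.55 RPKM in S. mikatae and at 9.44e-08 to 1.7e-05 in S. cerevisiae, which is next to 0, so no fold is given (difference 2.65, limma adjusted p = 0.000262). The R64 gene table does not hold this name. BAR1, ARG1, SNZ1, MEP2 and SRX1 complete the 12 highest and are described with their pathways.

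The 12 lowest called genes include ADH2, DOG1, HXT5 and PTR2, 2 meiotic genes, and 3 names that R64 does not hold. ADH2, the alcohol dehydrogenase that oxidises ethanol when glucose is gone, was at 10.4 RPKM in S. mikatae and at 515 to 1901 (median 1336) in S. cerevisiae. The lowest S. cerevisiae strain, YPS606, was still far above S. mikatae, and the S. cerevisiae mean was 121 times the S. mikatae value. The difference was -6.68 ± 0.53 (SE, limma adjusted p = 0.000262), the largest in size among the 123 called genes on the log2(RPKM + 1) scale. ADH1, its close relative, was not analysed here. No copy of at least 90% identity was found for ADH2, and sharing of reads between ADH1 and ADH2 was not tested. DOG1, which encodes a phosphatase of 2-deoxyglucose 6-phosphate, was at 14.7 to 44.8 RPKM (median 32.7) in S. cerevisiae and is listed at 0.000188 in S. mikatae (difference -4.92 ± 0.54, limma adjusted p = 0.00244). Its relative DOG2 was not analysed here. Over the alternative settings the DOG1 difference ran from -8.19 to -3.56, and that of ADH2 from -6.89 to -6.46. PTR2, the importer of di- and tripeptides, was at 7.95 RPKM against 51.9 to 185 (median 114), with a difference of -3.69 ± 0.64 (limma adjusted p = 0.0147). YNR014W, a gene without a known role, was at 25.8 RPKM against 124 to 356 (difference -3.14, limma adjusted p = 0.0147). UBC11, which encodes a ubiquitin-conjugating enzyme, was at 0.394 RPKM against 2.87 to 10.1 (difference -2.35, limma adjusted p = 0.0251, and 0.0584 without BC187). YNL303W, YHR049C-A and YNL179C, with differences of -3.46, -2.76 and -2.55, are not in the R64 gene table, and nothing can be said of a function. REC114, HXT5, DCI1 and SPO21 complete the 12 lowest.

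**Figure D2:**
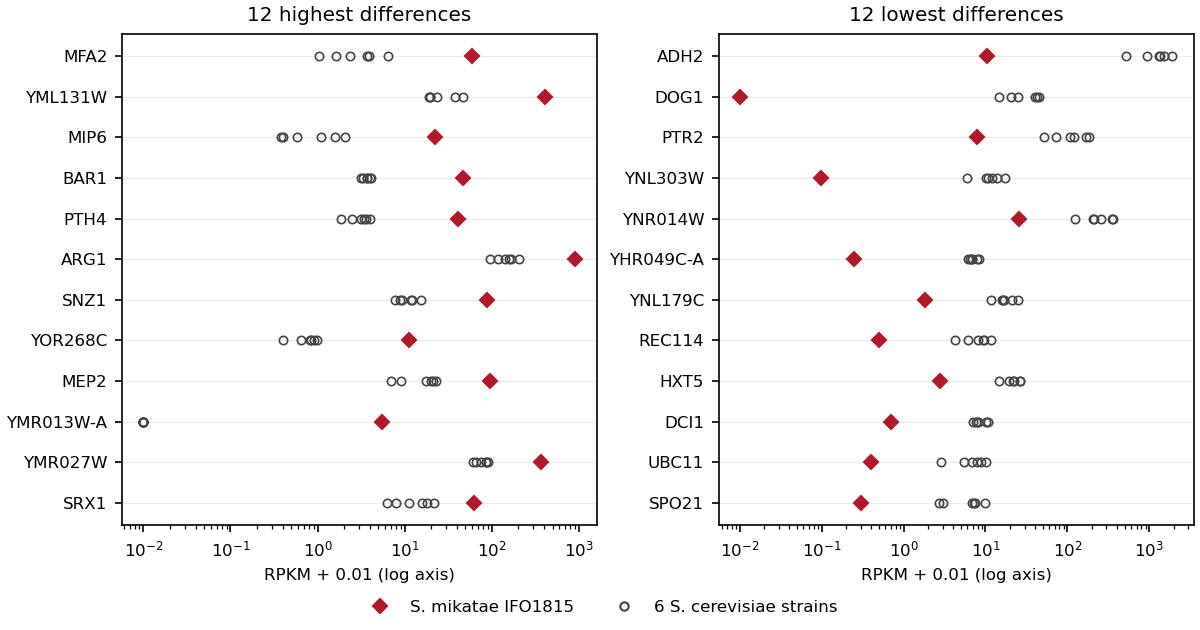
Deposited RPKM of the 12 highest and 12 lowest of the called members in each strain, on a log axis with 0.01 added, with 1 point for each S. cerevisiae strain and a marker for S. mikatae. The genes were picked among calls outside the S. cerevisiae range, so the S. mikatae marker lies outside the 6 points by choice. An example is ADH2 (10.4 against 515 to 1901). DOG1 (0.000188 in S. mikatae) and YMR013W-A (next to 0 in S. cerevisiae) sit at the offset.

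All 3 measured a-specific members were higher in S. mikatae than in every S. cerevisiae strain, and so were 9 of 12 haploid and pheromone-response members, with none below the range. The a-specific members were called 3 of 3 higher, with a median difference of 3.36, and the haploid and pheromone list 4 of 12 higher and 0 lower, with a median of 0.79, against 0.01 over all members. BAR1, the secreted protease that a cells use to degrade alpha-factor, was at 46.2 RPKM in S. mikatae and at 3.16 to 4.09 (median 3.69) in S. cerevisiae. The 6 S. cerevisiae values are tight and S. mikatae stood 12.6 times above their mean (difference 3.36 ± 0.22, limma adjusted p = 0.000115). STE6, the exporter of a-factor, was at 15.7 RPKM against 5.06 to 9.15 (median 6.60), a difference of 1.05 ± 0.23 (limma adjusted p = 0.0397). The STE6 call is the least secure of the 3, as its adjusted p rose to between 0.0542 and 0.0727 without YPS606, DBVPG1788, BC187 or YJM145 and to 0.0688 without normalisation.

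Among the haploid genes, STE4, the beta subunit of the G protein that carries the pheromone signal, was at 20.8 RPKM against 4.65 to 8.18 (median 7.62), a difference of 1.29 (limma adjusted p = 0.0139). PRM1, which acts in the fusion of mating cells, was at 19.99 RPKM against 3.41 to 7.99 (median 5.97), a difference of 1.60 (limma adjusted p = 0.0148). PRM2 and KAR5, the latter needed for nuclear fusion, were higher by 1.66 (limma adjusted p = 0.0123) and 1.26 (adjusted p = 0.00696). S. mikatae lay above all 6 strains for these 4 genes, as for every gene called higher. Each of the 4 passed the threshold when any S. cerevisiae strain was left out. STE12, the transcription factor of the pathway, stood above the range at 29.9 RPKM against 9.48 to 21.2 (limma adjusted p = 0.137). PRM5, a pheromone-responsive cell wall gene, was at 57.0 RPKM against 2.20 to 38.8 (limma adjusted p = 0.147). FUS2, which acts in cell fusion, was at 3.91 RPKM against 1.28 to 3.30 (limma adjusted p = 0.268). KEX2, the protease that processes alpha-factor, was at 42.0 RPKM against 25.4 to 34.99 (limma adjusted p = 0.161). These 4 lay above the range without passing the test.

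The mating markers of the other chromosomes carry the same check of cell type over the full table. All 7 a-cell genes were higher in IFO1815 than in each S. cerevisiae strain, among them MFA1 (177 RPKM against 0.957 to 6.65) and the alpha-factor receptor gene STE2 (80.1 against 3.42 to 6.97). The alpha-factor genes were higher as well: MF(ALPHA)1 was at 196 RPKM against 1.13 to 13.2, and MF(ALPHA)2 at 459 against 9.03 to 21.4. The alpha-agglutinin gene SAG1 was at 22.6 RPKM against 15.9 to 21.3. Of the haploid genes, FUS3, the kinase of the pathway, was at 57.6 RPKM against 0.774 to 4.59, and NEJ1, a regulator of end joining that diploids repress, at 19.6 against 0.333 to 2.49. Not every gene of these lists stood above the 6 S. cerevisiae strains: RAM2, which farnesylates a-factor, was at 65.6 RPKM against 60.8 to 137, and MSG5, a phosphatase of the pathway, at 29.2 against 22.8 to 39.3. STE13, the third member inside the range after normalisation, encodes a protease that processes alpha-factor. STE3, AFB1, GPA1 and FUS1 were not analysed here. In a culture measured as a whole, fewer cells of a type and less RNA per cell cannot be told apart, and species and cell type cannot be told apart with 1 S. mikatae strain. Both S. paradoxus strains, compared with the same S. cerevisiae columns, were also higher, with MFA2 at 616 and 159 RPKM and BAR1 at 76.6 and 32.4.

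**Figure D3:**
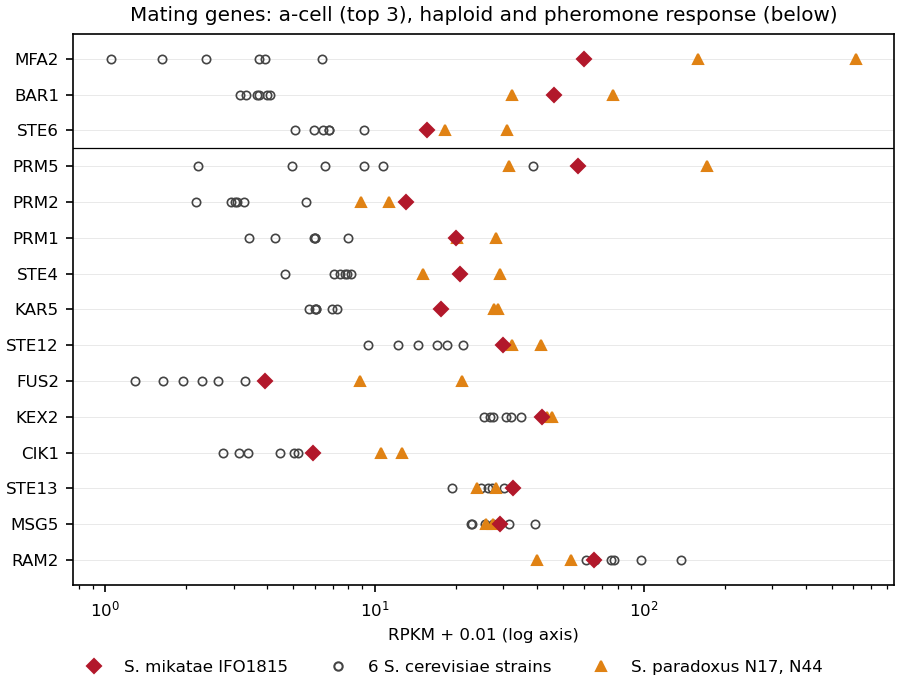
Deposited RPKM, on a log axis with 0.01 added, of the a-specific and the haploid and pheromone-response members in the 6 S. cerevisiae strains, in S. mikatae and in both S. paradoxus strains (triangles). S. mikatae lies above all S. cerevisiae points for MFA2, BAR1, STE6, STE4, PRM1, PRM2 and KAR5, the 7 called genes of these lists.

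Among genes for the use of ethanol and acetate, ADH2 was the only call. Of 12 members of that list, 6 lay below and 1 above the S. cerevisiae range, against 25.9% and 27.8% of all members. The median difference was -0.73. CYB2, which oxidises lactate, was at 7.96 RPKM against 15.1 to 50.5 (limma adjusted p = 0.0563), and MDH2, the cytosolic malate dehydrogenase of gluconeogenesis, at 33.2 against 59.2 to 152 (limma adjusted p = 0.123). ALD4, the mitochondrial aldehyde dehydrogenase, was at 101 RPKM against 114 to 311 (limma adjusted p = 0.29). CAT8, the activator of gluconeogenic genes, was at 2.13 RPKM against 3.89 to 6.05 (limma adjusted p = 0.0633). PCK1, the committed enzyme of gluconeogenesis, went the other way, at 10.5 RPKM against 0.929 to 4.16 (difference 1.47, limma adjusted p = 0.0631). None of these 5 passed the test.

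Respiratory chain and ATP synthase members lay below the range for 7 of 10 genes and above it for none, against 25.9% and 27.8% of all members. The median difference was -0.67, without normalisation -0.83, and 1 gene was called. ATP19, a subunit of ATP synthase, was at 135 RPKM in S. mikatae and at 271 to 468 (median 329) in S. cerevisiae (difference -1.21 ± 0.29, limma adjusted p = 0.0447). Its adjusted p rose to between 0.0645 and 0.0748 without YPS606, DBVPG1788, Y9 or YJM145 and to 0.0573 without normalisation. The cytochrome oxidase genes COX5A (147 RPKM against 211 to 391), COX5B (25.4 against 35.9 to 75.7) and COX6 (139 against 199 to 372) lay below the range, with limma adjusted p of 0.123, 0.102 and 0.167. HAP4, which encodes the activating subunit of the regulator of respiratory genes, was at 148 RPKM against 165 to 460 (limma adjusted p = 0.266). In the TCA cycle, 3 of 8 members lay below and 1 above the range. CIT1, citrate synthase, was at 83.8 RPKM against 164 to 284 (median 258) with a difference of -1.32 (limma adjusted p = 0.0611). Of the 32 genes of the glycolysis list 8 are members, and these do not stand for the whole pathway. Of the 8, 6 lay inside the range, the median was -0.03, and no member was called. FBA1 is among the 6, but quantile normalisation gave it the same value, 13.58, in all 7 columns, so its place was fixed. As deposited, FBA1 was at 13871.5 RPKM against 10017 to 14317. POR1, the main porin of the mitochondrial outer membrane and in no list, was named after its values were seen: it was at 496 RPKM against a S. cerevisiae median of 1526 (difference -1.36, limma adjusted p = 0.0447, and 0.0533 to 0.086 without YPS606, Y9, BC187 or YJM145).

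Of 5 members for sugar uptake, sucrose splitting and glucose signalling, 2 lay above and 2 below the range, and 1 was called, lower. HXT5, a hexose transporter of slowly growing cells, was at 2.78 RPKM in S. mikatae and at 14.7 to 26.4 (median 21.9) in S. cerevisiae. The difference was -2.44 ± 0.29 (limma adjusted p = 0.00286), and passed with any strain left out. SUC2, the invertase that splits sucrose, was at 305 RPKM against 32.6 to 248 (limma adjusted p = 0.188), and Y9 was the highest S. cerevisiae strain. In trehalose and glycogen metabolism, 5 of 7 members lay below and 1 above the range, with a median of -0.53 and no call. GAC1, a subunit that directs a phosphatase to glycogen synthase, was at 7.12 RPKM against 24.2 to 145 (difference -3.34, limma adjusted p = 0.0681). TSL1, a subunit of trehalose synthase, was at 92.8 RPKM against 173 to 422 (limma adjusted p = 0.149). For glycerol and osmotic response, 5 of 7 members lay below the range (4 without normalisation) and 1 was called. Of the 5, SLN1 (difference -0.06), SSK2 and GUT2 lay inside the range as deposited. GPD2 and GPP1 lay below it only as deposited. GUT1, glycerol kinase, was at 8.45 RPKM against 23.2 to 46.0 (median 28.8), with a difference of -1.88 ± 0.31 (limma adjusted p = 0.012). S. mikatae lay well below the lowest S. cerevisiae strain, BC187, and both S. paradoxus strains were at a like level (8.63 and 6.92 RPKM).

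**Figure D4:**
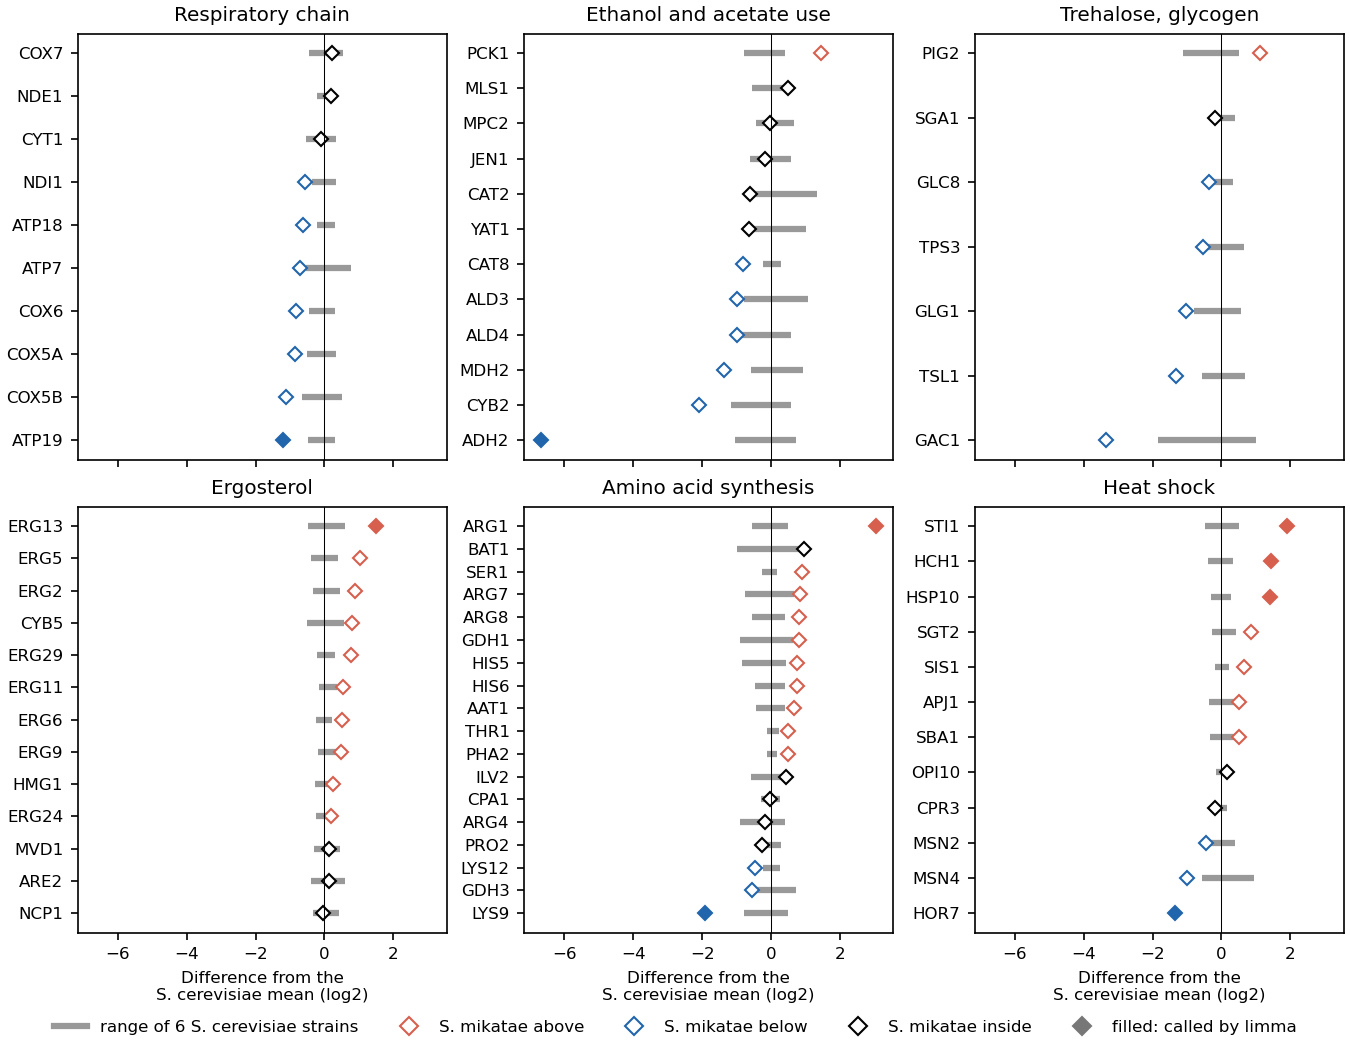
Difference of S. mikatae from the S. cerevisiae mean on the normalised log2 scale for the members of 6 lists (diamonds, filled where called), with the range of the 6 S. cerevisiae strains about their own mean as a bar. Respiratory chain, ethanol and acetate, and trehalose and glycogen members lie mostly below 0 (medians -0.67, -0.73 and -0.53), and ergosterol, amino acid synthesis and heat shock members mostly above (0.50, 0.58 and 0.51).

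Genes of 3 chaperone proteins were higher in S. mikatae. Of 12 heat shock members, 7 lay above (58.3%) and 3 below the range (25%), against 27.8% and 25.9% of all members. In this list 3 were called higher and 1 lower, where 3.88% and 3.46% of all members were. STI1, a co-chaperone that links Hsp70 and Hsp90, was at 325 RPKM in S. mikatae against 67.2 to 151 (median 86.5), a difference of 1.91 ± 0.39 (limma adjusted p = 0.0296). HSP10, the mitochondrial co-chaperonin, was at 1249 RPKM against 451 to 666 (difference 1.41, limma adjusted p = 0.0133). HCH1, an activator of the Hsp90 ATPase, was at 368 RPKM against 104 to 188 (difference 1.43, limma adjusted p = 0.0447). All 3 stood above every S. cerevisiae strain, as did every gene called higher. STI1 lost its call without YPS606, BC187 or YJM145 (adjusted p 0.0532 to 0.0626), and HCH1 without YPS606, Y9, BC187 or YJM145 (0.0601 to 0.0763). Without normalisation none of the 3 passed (adjusted p 0.0688 for STI1, 0.0649 for HSP10 and 0.0928 for HCH1). HOR7, a small protein induced by osmotic stress and of very high level, was at 1697 RPKM against 3569 to 8409 (median 5712). Quantile normalisation gave it the same value, 12.28, in all 6 S. cerevisiae strains, so the normalised fit holds none of the spread of its deposited values and its call is given no weight here. Without normalisation the difference was -1.71 and HOR7 did not pass (limma adjusted p = 0.0727). MSN2 and MSN4, the general stress activators, were at 41.0 RPKM against 43.7 to 83.3 and at 60.1 against 85.3 to 261, below the range without passing the test (limma adjusted p = 0.375 and 0.254).

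In the oxidative stress list, 4 of 11 members lay above and 4 below the range (36.4% each), against 27.8% and 25.9% of all members. Of the 11, 2 were called higher, where 3.88% of all members were. SRX1, sulfiredoxin, which repairs oxidised peroxiredoxin, was at 62.3 RPKM against 6.34 to 21.8 (median 13.4), a difference of 2.31 ± 0.50 (limma adjusted p = 0.0323, and 0.0571 without YPS606, 0.0537 without DBVPG1788 and 0.0651 without normalisation). ZWF1, glucose 6-phosphate dehydrogenase, the source of NADPH, was at 255 RPKM against 135 to 172 (median 154), a difference of 0.87 ± 0.20 (limma adjusted p = 0.0419). ZWF1 missed the threshold without YPS606, Y9, BC187 or YJM145 (0.0644 to 0.0763) and without normalisation (0.122). Both genes lie above all 6 strains, as does every gene called higher. GTO3, a glutathione transferase, was at 4.85 RPKM against 12.1 to 45.6, and TRR2, the mitochondrial thioredoxin reductase, at 17.7 against 26.9 to 35.7, with limma adjusted p of 0.0903 and 0.0516.

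Amino acid synthesis genes lay mostly above the range, 10 of 18, with 3 below, against 27.8% and 25.9% of all members. The median difference was 0.58, and 1 gene was called in each direction. ARG1, which makes argininosuccinate on the way to arginine, was at 911 RPKM in S. mikatae against 96.5 to 207 (median 151), 6.13 times the S. cerevisiae mean (difference 3.07 ± 0.36, limma adjusted p = 0.00286). Of the other arginine genes, ARG8 was at 64.2 RPKM against 23.3 to 54.4 and ARG7 at 133 against 55.8 to 131, with limma adjusted p of 0.163 and 0.307. ARG4 and CPA1, of the same pathway, lay inside the range, at 307 RPKM against 217 to 525 and at 273 against 261 to 373. SER1, of serine synthesis, was at 287 RPKM against 133 to 208 (limma adjusted p = 0.0572). LYS9, of lysine synthesis, was at 22.7 RPKM against 51.9 to 118 (median 92.9), a difference of -1.93 ± 0.41 (limma adjusted p = 0.0318), with 0.056 without YPS606, 0.0626 without BC187 and 0.064 without YJM145. The highest and the lowest called genes of this list thus belong to arginine and to lysine synthesis.

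CYS3, which makes cysteine from cystathionine, was at 1068 RPKM against 444 to 682 (median 541), a difference of 1.31 ± 0.21 (limma adjusted p = 0.0108), and was the call among 9 sulphur and methionine members, of which 4 lay above and 1 below the range. Without normalisation its difference was 0.97 and its adjusted p 0.0928. In nitrogen use, 1 of 10 members was called higher and 2 lower. MEP2, the high-affinity ammonium permease, was at 95.0 RPKM against 6.95 to 22.7 (median 18.7), a difference of 2.67 ± 0.67 (limma adjusted p = 0.0497). Its call sits at the threshold and was lost without each strain but DBVPG6040 (0.0624 to 0.0781). LYP1, the lysine permease, was at 52.4 RPKM against 111 to 157 (median 136), a difference of -1.31 ± 0.26 (limma adjusted p = 0.0251, and 0.0552 without BC187). PTR2, described above, was the other. An ammonium permease gene was thus higher and the genes of a lysine and a peptide importer lower than in all 6 S. cerevisiae strains.

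Of 12 members for zinc and vitamins, 3 lay above and 3 below the range, with a median of 0.12, and 3 were called, all higher and all of vitamin metabolism. SNZ1 and SNO1 are neighbouring genes that act together in pyridoxine (vitamin B6) synthesis. SNZ1 was at 89.3 RPKM against 7.74 to 15.5 (median 10.5), a difference of 3.03 ± 0.22 (limma adjusted p = 0.000165). SNO1 was at 27.3 RPKM against 6.27 to 16.8 (median 8.43), a difference of 1.43 ± 0.34 (limma adjusted p = 0.0447). SNZ1 kept its call with each strain left out, whereas SNO1 lost it without each strain but DBVPG6040 (0.0676 to 0.0764) and without normalisation (0.103). THI80, which makes thiamine pyrophosphate, was at 75.4 RPKM against 20.1 to 35.5 (difference 1.60, limma adjusted p = 0.0151, and 0.0565 without normalisation). COT1, a vacuolar zinc and cobalt transporter, was at 4.42 RPKM against 11.7 to 55.8 (limma adjusted p = 0.115). NRT1, a transporter of nicotinamide riboside, is no member because it is listed at 0 in S. mikatae. It was at 9.99 to 104.7 RPKM in S. cerevisiae, and at 13.5 and 8.35 in N17 and N44.

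Genes for building ribosomes lay above the range more often than below it. Of 49 ribosome biogenesis members, 21 lay above and 2 below the range (12 and 0 without normalisation), with a median of 0.27. Single S. cerevisiae strains had medians of -0.34 to 0.31 for this list, about the mean of the 6. The S. mikatae median thus lay within the spread of the S. cerevisiae strains. UTP9, of the complex that processes the small-subunit RNA, was the 1 call: it was at 60.1 RPKM against 22.0 to 33.8 (median 30.6), a difference of 1.07 (limma adjusted p = 0.0171, and 0.0869 without normalisation). NOP8 (33.6 RPKM against 12.1 to 23.5) and UTP14 (37.3 against 15.0 to 27.0), other assembly factors, were above the range and not called. Of 10 members for RNA polymerases I and III and their factors, 6 lay above and 0 below, with a median of 0.55 and no call; RPA49, a subunit of polymerase I, was at 145 RPKM against 73.4 to 130. Among 16 cytosolic ribosomal protein members the median was -0.00 (-0.28 without normalisation), with 4 above, 6 below, 2 called higher and 2 lower.

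The 4 ribosomal protein calls need their scale beside them. RPS15 was at 2622 RPKM against 1427 to 2498 (median 2250), a difference of 1.26 after normalisation (limma adjusted p = 0.00244) and of 0.32 without it (adjusted p = 0.653). RPS1B was at 1813 RPKM against 1045 to 1753 (difference 0.62, limma adjusted p = 0.0447), and 0.33 without normalisation (adjusted p = 0.607). Both encode proteins of the small subunit and barely exceeded the highest S. cerevisiae strain. Quantile normalisation raised the difference of the 24 members with a S. cerevisiae mean of at least 1000 by a median of 0.25 and by up to 0.94. RPS10A was at 891 RPKM against 1333 to 2216 (difference -0.82, limma adjusted p = 0.0489), and RPS10B at 468 against 894 to 1547 (difference -1.18, adjusted p = 0.0148). RPS10A and RPS10B are copies that are 93.1% identical and encode the same protein of the small subunit, and RPS1B has a copy, RPS1A, at 91.9%, so the split of reads between copies is uncertain. RPS1B lost its call without each strain but DBVPG6040 (0.0566 to 0.0829), and RPS10A without DBVPG1788, Y9, BC187 or YJM145 (0.0718 to 0.0879) and without normalisation (0.0948).

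Of 26 mitochondrial ribosome members, 5 lay above (19.2%) and 9 below the range (34.6%), against 27.8% and 25.9% of all members. MRPL24 was higher (87.3 RPKM against 36.3 to 51.8, difference 1.11, limma adjusted p = 0.0447) and MRPL23 lower (64.5 against 113 to 164, difference -0.90, adjusted p = 0.046); both are proteins of the large subunit. MRPL24 lost its call without DBVPG1788, Y9, BC187 or YJM145 (0.0608 to 0.0771) and MRPL23 without each strain but DBVPG6040 (0.0626 to 0.0848). Without normalisation neither passed (0.0788 and 0.0668). Proteasome members lay above the range for 5 of 13 (38.5%) and below for 0, against 27.8% and 25.9% of all members. Their median was 0.21 (0.07 without normalisation), with no call. That median lay within those of single S. cerevisiae strains, -0.28 to 0.30 about the mean of the 6. RPT4, an ATPase of the regulatory particle, was at 221 RPKM against 92.7 to 150 (limma adjusted p = 0.0644). Of 18 members for histones and DNA replication, 9 lay above and 2 below the range, with no call. CSM3, a protein that steadies replication forks, was at 22.7 RPKM against 5.83 to 13.7 (limma adjusted p = 0.0538), and HTZ1, the histone variant H2A.Z, at 48.7 against 67.4 to 97.3.

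Among genes of ergosterol synthesis, the sterol of yeast membranes, 10 of 13 members lay above the range and 0 below (7 and 0 without normalisation). Of all members 27.8% lay above and 25.9% below. The median of the list was 0.50, or 0.36 without normalisation. ERG13, which makes HMG-CoA at the start of the pathway, was at 852 RPKM against 272 to 592 (median 339), a difference of 1.51 ± 0.37 (limma adjusted p = 0.0473). This call is close to the threshold and was lost without normalisation (0.124) and without each strain but DBVPG6040 (0.0619 to 0.0834). ERG5 (158 RPKM against 57.8 to 126), ERG2 (715 against 404 to 637) and ERG6 (355 against 226 to 291), late enzymes of the pathway, lay above the range and were not called. In oxygen and haem, HEM15, ferrochelatase, which inserts iron in the last step of haem synthesis, was at 41.4 RPKM against 141 to 227 (median 159), a difference of -1.995 ± 0.31 (limma adjusted p = 0.00993). It passed with any strain left out and without normalisation. AAC1, a minor carrier of ADP and ATP in mitochondria, was at 27.9 RPKM against 4.40 to 11.5 (difference 1.60, limma adjusted p = 0.0441, 0.0526 to 0.0748 without YPS606, DBVPG6040, Y9 or YJM145, and 0.0639 without normalisation). Of 7 members of that list, 4 lay above and 3 below the range.

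In iron and copper use, MAC1, the activator of copper uptake genes, was at 17.1 RPKM against 25.7 to 34.2 (median 29.0), a difference of -0.83 ± 0.18 (limma adjusted p = 0.0318, 0.052 to 0.0694 without YPS606, Y9, BC187 or YJM145, and 0.125 without normalisation). ATX1, the copper chaperone, was at 111 RPKM against 25.6 to 58.2 (limma adjusted p = 0.0767). Of 25 peroxisome and fatty acid oxidation members, 8 (32%) lay above and 11 (44%) below the range, against 27.8% and 25.9% over all members. In this list 3 were called higher and 2 lower, where 3.88% and 3.46% of all members were. POT1, the thiolase of beta-oxidation, was at 20.2 RPKM against 2.90 to 8.79 (difference 1.64, limma adjusted p = 0.0489, 0.0611 to 0.0809 without YPS606, DBVPG1788, DBVPG6040 or YJM145, and 0.0581 without normalisation). The peroxins PEX22 and PEX17, which act in protein import, were at 44.6 RPKM against 13.6 to 26.0 and at 42.9 against 15.0 to 20.3 (limma adjusted p = 0.0148 and 0.0251). PEX22 did not pass without normalisation (0.0639), nor PEX17 without YJM145 (0.0506). DCI1, related to dienoyl-CoA isomerase, was at 0.688 RPKM against 7.09 to 10.7 (difference -2.38 ± 0.31, limma adjusted p = 0.00382). PEX9, an import receptor, was at 0.20 RPKM against 0.776 to 2.25 (difference -1.13, limma adjusted p = 0.0447, 0.0643 to 0.0834 without each strain but DBVPG6040, and 0.117 without normalisation). POT1 and DCI1 thus stood on opposite sides of the S. cerevisiae range, and the POT1 call is not secure.

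For the cell wall, PIR3, a wall protein, was the call of 11 members, at 28.6 RPKM against 83.6 to 154 (difference -2.02 ± 0.41, limma adjusted p = 0.0279, and 0.0607 without BC187). Meiosis and sporulation members were mostly within the range, 13 of 20, with a median of 0.01. REC114, needed for the DNA breaks that start recombination, was at 0.488 RPKM against 4.23 to 11.8 (median 8.79), a difference of -2.49 ± 0.44 (limma adjusted p = 0.0148). SPO21, of the meiotic spindle pole body, was at 0.294 RPKM against 2.72 to 9.94 (difference -2.28, limma adjusted p = 0.0447, 0.0537 to 0.0788 without DBVPG1788, DBVPG6040, BC187 or YJM145, and 0.0568 without normalisation). MEK1, a meiosis-specific kinase, went the other way, at 7.08 RPKM against 1.06 to 1.87 (difference 1.61 ± 0.21, limma adjusted p = 0.00313). Of the 20 members, 15% lay above and 20% below the range, against 27.8% and 25.9% over all members. In this list 1 was called higher and 2 lower, where 3.88% and 3.46% of all members were. These called genes were all at low levels. Purine and pyrimidine synthesis (14 members), translation factors (14), cell cycle genes (11), silencing (12), drug efflux (10), phosphate (4), galactose (4) and tRNA synthetases (4) gave no call, with medians from -0.64 for phosphate to 0.18 for drug efflux. The 1 member of the aroma list lay inside the range, and no alpha-specific gene is a member.

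**Figure D5:**
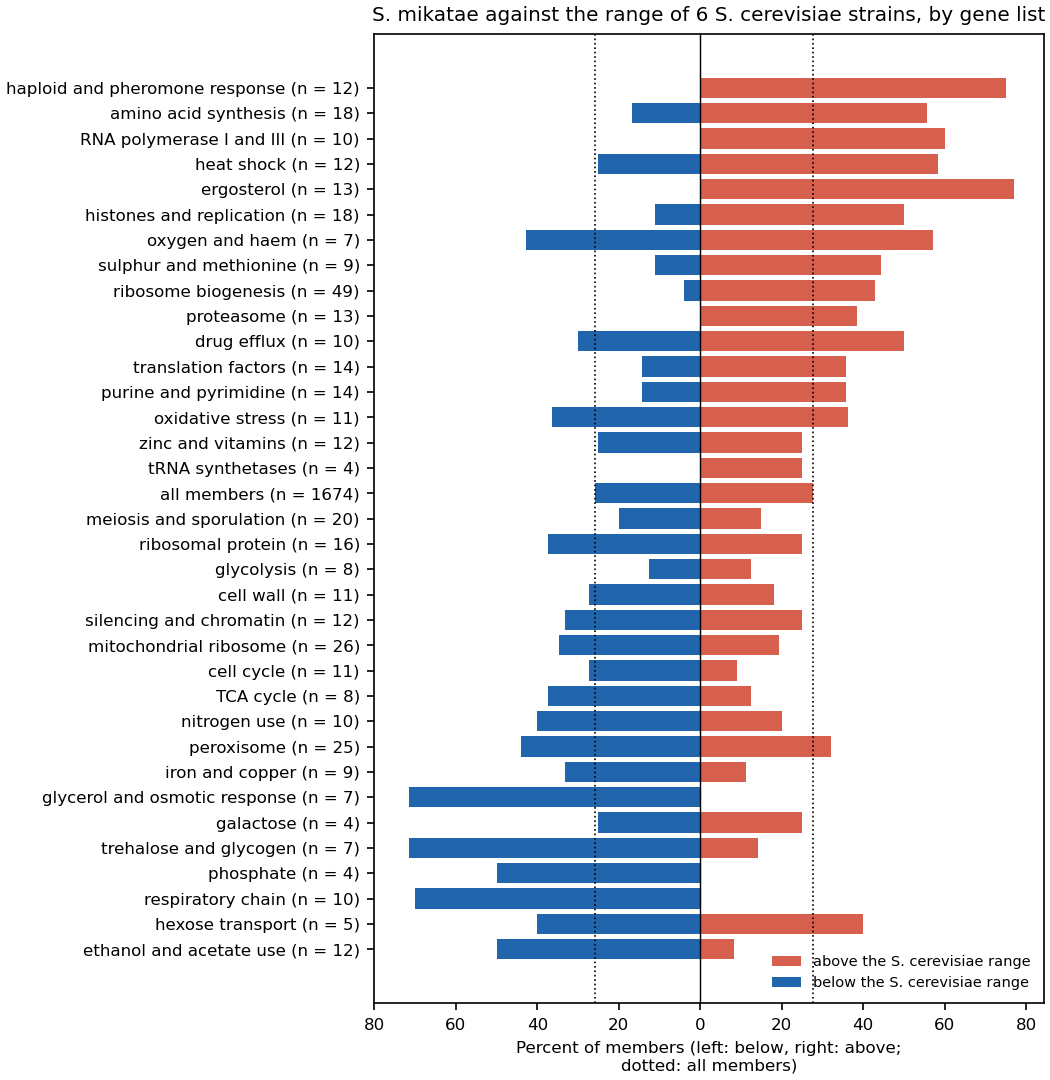
Share of members above (right) and below (left) the S. cerevisiae range for each gene list with at least 4 members, beside all 1674 members (27.8% above and 25.9% below). Ergosterol and haploid or pheromone-response members lie furthest to the right (76.9% and 75% above), and trehalose, glycerol and respiratory chain members furthest to the left (71.4%, 71.4% and 70% below). These shares are of normalised values, and for the glycerol list 4 of 7 members lay below without normalisation.

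Outside the lists, 77 of the 123 called genes had no assigned group, and 46 belonged to at least 1 list. Called genes were spread over the 7 chromosomes, from 4.17% of members on chromosome I to 10.7% on chromosome XIII, and the chromosome medians ranged from -0.03 on IX to 0.06 on XIV. Low levels carried more calls: 11.9% of the 419 members with a S. cerevisiae mean up to 17.2 RPKM were called, against 6.68% of the 419 members above 79.1. In the former, 36.0% lay above the range and 20.3% below, and in the latter 22.4% and 28.2%.

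Values of both S. paradoxus strains were set beside these, and the comparisons share the 6 S. cerevisiae columns. Over the 1669 members with values in all 9 strains, N17 lay above the S. cerevisiae range for 27.5% and below for 31.1%, and N44 for 28.2% and 26%. Of the 65 genes called higher in S. mikatae, N17 and N44 both lay above the range for 38 and both inside for 8. Of the 56 called lower that have S. paradoxus values, both lay below for 29 and both inside for 4. ADH2 was below the S. cerevisiae range in all 3 strains of the other species, at 10.4 RPKM in IFO1815, 21.9 in N17 and 17.7 in N44. BAR1, MFA2, SNZ1 and GUT1 were also on the same side in these 3 strains. In a fit with a group for each species, 74 members were called between S. mikatae and S. cerevisiae (4.43%), 268 between S. paradoxus and S. cerevisiae (16.1%), and S. mikatae differed from S. paradoxus at 14 members (0.839%) by limma's adjusted p, 7 in each direction. In that order the contrasts set 1 against 6, 2 against 6 and 1 against 2 columns, so their numbers of calls cannot be compared. Large differences between S. mikatae and S. paradoxus, such as MEP2 (3.27) and PTR2 (-2.89), were not called. HXT5 was at 27.6 and 29.8 RPKM in N17 and N44, above the highest S. cerevisiae strain as deposited and inside the range after normalisation. It was lower in S. mikatae than in S. paradoxus by a difference of -2.46 (limma adjusted p = 0.00632). CYS3 was at 439 and 368 RPKM in N17 and N44 and was higher in S. mikatae than in S. paradoxus by 1.68 (limma adjusted p = 0.029). YOR268C was at 1.15 and 0.368 RPKM in N17 and N44, and was higher in S. mikatae by 3.11 (limma adjusted p = 0.0058). These 3 genes thus differed from each of the other species, whereas PEX9 was below the S. cerevisiae range in S. mikatae and above it in N17 and N44 (6.56 and 8.41 RPKM, difference between the species -2.39, limma adjusted p = 0.0162).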

How the data were processed

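Polyadenylated RNA of 9 strains was sequenced, and the authors deposited 1 table of values per gene and strain. The deposited values are treated as RPKM, a unit that the file header does not name: in the S. cerevisiae columns, 92.6% to 94.7% of the low values used were whole multiples (tolerance 0.05) of a step after multiplication by gene length. Per the submitters' processing notes, cutadapt, TopHat, Cufflinks and the R64 build were used. The genome and gene lengths behind the S. mikatae values are not given in the sources used here, and the library protocol in the labels does not mark strand.

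Members, gene lists and tests were chosen with earlier results of these data known. Values were taken as log2(RPKM + 1), quantile-normalised over the members, and tested with limma 3.58.1 (R 4.3.3; lmFit, and eBayes with a trend, 2-sided) with Benjamini-Hochberg adjustment over 1674 members and a threshold of 0.05. The range is the lowest to highest of the 6 S. cerevisiae strains. Each strain counts as 1 sample, so p-values rest on the spread between the 6 S. cerevisiae strains. They hold no spread within S. mikatae, which has 1 column. Lists are described by counts and medians without a test. Called genes named are the 12 highest, the 12 lowest and the highest and lowest in each of 37 lists, and list members may be named as well. Near copies (at least 90% identity) were found with BLAST+ 2.17.0, and upstream windows were read with Biopython 1.88. The fit was tested on simulated data. Alternatives were the pseudocount, normalisation, filters, chromosomes, species, the trend and leaving out each S. cerevisiae strain. Removing overlapping, copied or unlisted genes was chosen after seeing the data.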

Additional observations from a re-analysis of the deposited data

Results flagged for a closer look

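Among 140 genes examined for an S. cerevisiae strain far from the other 5, 3 had such a strain, where chance gives about 7. For YMR013W-A the highest strain after normalisation was BC187, at 0.0791 on the normalised log2 scale with the next at 0.00868. As deposited, BC187 was at 2.37e-07 RPKM and Y9 was the highest at 1.7e-05, and all 6 values are next to 0. For PRM1 the lowest strain was YJM145, at 2.16 on the normalised log2 scale with the next at 2.67, and S. mikatae lay above all 6. For PCK1 the lowest strain was also YJM145, at 1.18 with the next at 1.92, and the gene was not called.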

How the results depend on the processing

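No paired analysis was possible because the columns carry no replicate numbers shared between species and S. mikatae has 1 column. Against 123 calls (65 higher, 58 lower), there were 55 (29 and 26) without normalisation, 48 (22 and 26) for members with a mean of at least 10, 74 (38 and 36) with a group for each of 3 species, and 204 (155 higher) with all 16 chromosomes; median centring gave 43 higher. Leaving out each S. cerevisiae strain gave 64 to 152 calls, 35 to 79 higher and 28 to 73 lower (71, with 37 and 34, without YPS606), and 479 to 526 members above and 445 to 483 below the range. The cause was not tested. The stricter filter and the leave-one-out fits hold fewer genes or samples by construction, yet the number rose without DBVPG6040. A pseudocount of 0.1, genes at 0 kept, no trend, chromosomes I and XI left out, and overlapping, copied or unlisted genes left out each kept the number of calls within 1.5 times. The numbers above and below the range stayed within 1.5 times under each alternative run on them. Of 64 called genes followed singly, none changed direction under any of the alternatives, and 39 passed without normalisation, 54 with median centring and 44 without YJM145. No median of the 11 lists followed, which were chosen out of the 37, changed sign. Among the lists not followed, 2 medians near 0 changed sign without normalisation. They were those of meiosis and sporulation (0.01 to -0.10) and of tRNA synthetases (0.05 to -0.06). The depth of S. mikatae is unknown, so the precision of its low values cannot be given, and low members such as PEX9 and SPO21 rest on it.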
